A study of Mus musculus with 3 samples.

Results

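Sublining fibroblasts are the connective tissue cells that lie beneath the surface layer of the joint membrane. They were chosen here from single-cell RNA profiles of arthritic mouse knee synovium by a gate on raw molecule counts. A cell barcode was kept when it had at least 200 genes and at most 20% mitochondrial molecules, at least 1 molecule of Pdgfra, and at least 3 of 7 marker genes detected. The 7 markers were Thy1, Cd34, Col14a1, Clec3b, Pi16, Dpp4 and Ly6a. Cells were refused when Prg4 made up 1% or more of their molecules, when Saa3 and Hp together made up 2% or more, when they held more than 1 molecule of Fmod or of Csf1r, any of Cdh5, or more than 2 of 5 cell cycle genes. The gate took 1127 of 38722 barcodes that passed the quality limits. The values of these 19 rule genes and of the mitochondrial genes chose the cells, so their levels are given as a description and were not tested.

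The synovium has a lining, in which fibroblasts secrete lubricin (the product of Prg4) and hyaluronan into the joint fluid, and a sublining of looser tissue around vessels and fat. Sublining fibroblasts build collagen and elastic fibres, and many carry THY1 or CD34 at their surface. They also release chemokines, cytokines and growth factors that act on leukocytes, vessels and neighbouring stroma. A fibroblast state that expresses Pi16 and Dpp4 is known from many tissues and lies in the adventitia around vessels.

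The study profiled synovium dissected from inflamed knees of 6 female wild type C57BL/6 mice aged 8 weeks, with tissue from 2 mice pooled in each of 3 libraries. Every mouse had collagen- and antibody-induced arthritis. Type II collagen (100 ug per mouse) was given at day 0, a cocktail of monoclonal antibodies to type II collagen (1 mg per mouse) at day 21, and lipopolysaccharide at day 22, and tissue was taken in the effector phase. No untreated group was analysed here, so no value below separates arthritis from health, and the comparisons are between groups of cells within the same 3 libraries.

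The 3 libraries, replicates 1, 2 and 3, held 101384374, 99782608 and 116125707 molecules (unique molecular identifiers, UMIs) in 11939, 11602 and 15263 barcodes. GEO's sample notes state 11111, 10668 and 14363 filtered cells. Barcode names are running labels, and 6784 of 31327 names occurred in more than 1 library, so a shared name marks no shared cell. The members had a median of 14588, 16015 and 11154 UMIs, against 4917, 4742 and 5282 over all quality-passing barcodes. Scrublet scores of 0.2 or more, a sign of possible doublets, were given to 11, 18 and 34 members.

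The members numbered 260, 347 and 520. They made up 2.18% (exact Clopper-Pearson 95% interval 1.93 to 2.46), 3.0% (2.70 to 3.33) and 3.41% (3.13 to 3.71) of quality-passing barcodes, a mean of 2.86% ± 0.626 (SD, n = 3). Replicate 1 had the lowest share. Of all barcodes with Pdgfra they were 14.5%, 17.9% and 17.7%, a mean of 16.7% ± 1.89 (SD, n = 3). These intervals cover counting error only.

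A further 1251 barcodes met every clause but Pdgfra, with no molecule of it, and 993 failed only on the markers. Exactly 3 markers were detected in 476 members (42.2%), 4 in 338, 5 in 208, 6 in 85 and all 7 in 20. Of the barcodes that failed only on the markers, 456 had 2, and these were shallower, with a median of 8159.5 UMIs against 11831 in the members with 3. The cells just outside had 544 CPM of Dpt (counts per 1000000 UMIs of the summed cells), a gene of skin and adventitial fibroblasts, and those just inside had 756 CPM. Igf1 stood at 636 CPM outside and 771 CPM inside, and C3 at 2013 and 2810 CPM. The Prg4 limit parted cells in which Igf1 was low on both sides: 131 members with 0.5 to 1% Prg4 had 132 CPM of Igf1, and 114 barcodes with 1 to 2% had 101 CPM, against 852 CPM over all members. Between 1 and 2% of Saa3 plus Hp lay 218 members, and 140 barcodes lay just outside at 2 to 4%. A single molecule of Fmod was held by 164 members, and 71 barcodes fell just outside with 2.

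The name Thy1 Cd34 held for part of the members. Both genes were detected in 399 of 1127 members (35.4%), Thy1 alone in 357 (31.7%), Cd34 alone in 250 (22.2%), and neither in 121 (10.7%), which entered through the other markers. Thy1, a glycoprotein anchored in the cell membrane, measured 119, 172 and 140 CPM in the members of replicates 1, 2 and 3. Its mean was 8.50 CPM in the lining-side cells, 74.6 in the acute-phase cells, 146 in the Fmod cells and 34.8 in phagocytes (these gates are defined below). Cd34, a sialomucin of progenitors and vessels, measured 84.3, 100 and 123 CPM. Its means elsewhere were 48.0, 35.3, 54.9 and 45.5 CPM, so the mean of Cd34 was highest in the members, while Thy1 was as high in the Fmod cells.

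Of the other markers, Col14a1, a collagen that binds fibrils, measured 333, 435 and 379 CPM in the members and was found in 88.7% of them. Clec3b (tetranectin, a plasminogen-binding protein) measured 88.5, 183 and 305 CPM, a mean of 192 ± 109 CPM (SD, n = 3). Pi16, a secreted protein of the adventitial state, measured 155, 142 and 171 CPM and was detected in 428 members. Dpp4, a cell surface peptidase, was detected in 46 members at 1.86, 7.16 and 3.26 CPM. Its mean of 4.10 ± 2.75 CPM (SD, n = 3) stood beside 3.76 ± 1.66 CPM in phagocytes, 1.24 in the acute-phase cells, 1.32 in the Fmod cells and 0 in the lining-side cells. Ly6a separated little: its mean was 734 CPM in the members, 1159 in the lining-side cells and 472 in phagocytes. After every cell was thinned to 2000 UMIs, Thy1 was found in 23.8% of members and 3.38% of phagocytes, and Cd34 in 18.8% and 3.67%. Without thinning, Thy1 was found in 68.9% of members, whose deeper profiles raise such shares.

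**Figure D1:**
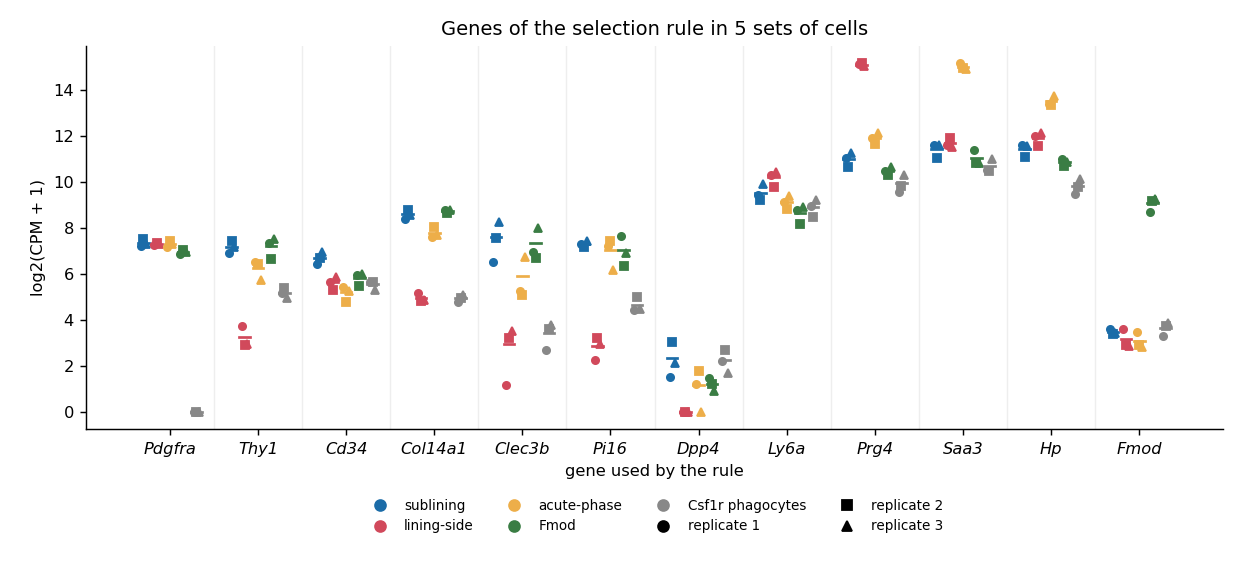
Levels of 12 genes used by the gate, as log2(CPM + 1) on the vertical axis, in 5 sets of cells (colours), with 1 point for each library (shapes) and a bar at the mean. Thy1 is as high in the Fmod cells (mean 146 CPM) as in the sublining members (143 CPM), and Dpp4 is low in the members (4.10 CPM) and in the Csf1r phagocytes (3.76 CPM).

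Markers of other cell types were measured in the members as summed levels. The 6 pan-fibroblast genes summed to 69662, 66539 and 67002 CPM. The 7 monocyte and macrophage genes summed to 893 to 1219 CPM, against 11655 to 15472 CPM in the phagocytes. Cdh5 was at 0 by the rule and the endothelial list summed to 32.6 to 50.2 CPM. The adipocyte list summed to 3.3 to 5.5 CPM, with 4 of 5 genes detected. The osteoblast list summed to 6.7 to 16.1 CPM (4 of 5 detected) and the skeletal muscle list to 2.6 to 5.1 CPM (5 of 7 detected). The genes of these lists at 0 in all member cells were Lep, Dmp1, Myh1 and Myod1. Lep was also at 0 in the lining-side, acute-phase and Fmod cells. The mesothelial list stayed between 0.2 and 0.3 CPM. Chondrocyte markers summed to 228 to 244 CPM, against 120 to 128 CPM over all quality-passing barcodes. Tenocyte markers summed to 205 to 330 CPM, against 164 to 231 CPM. Below the level over all barcodes stood the pericyte (86.8 to 155 CPM), erythroid (109 to 344 CPM) and T cell (10.3 to 22.1 CPM) lists.

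Neutrophil RNA was present as well. The 6 neutrophil genes summed to 5796, 9279 and 3315 CPM in the members of replicates 1, 2 and 3, in the same order as in the phagocytes (7778, 14639 and 4085 CPM). S100a8 plus S100a9 measured 5370, 8731 and 3070 CPM in the members and 17553, 29146 and 8137 CPM over whole libraries. The limit on free RNA captured in every droplet takes such RNA to have the make-up of the whole library, which was not measured. If all of the S100a8 plus S100a9 were free RNA of that make-up, free RNA would be 30.6%, 30.0% and 37.7% of the members' molecules. A few cells carried most of it: without the 20, 46 and 34 members that had 1% or more S100a8 plus S100a9 or at least 2 Cd3 molecules, the limit came to 12.5%, 11.7% and 18.4%.

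The most abundant member transcripts of known function coded for matrix. Col1a1, the main chain of type I collagen, measured 33821, 31989 and 33259 CPM, and Col3a1, the chain of type III collagen, 13914, 13558 and 12648 CPM. Sparc, a collagen-binding glycoprotein, measured 19321, 18175 and 20995 CPM. The 3 libraries lay close together for each of them, with no common order. Igfbp4, which binds insulin-like growth factors, measured 4346, 3752 and 4274 CPM.

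Members were then compared with 3 other gates of Pdgfra-positive cells from the same libraries. The lining-side gate took 312 cells (60, 84 and 168) with at least 1% Prg4 and fewer than 3 of the 7 markers. It kept the members' limits on Saa3 plus Hp and on Fmod. The acute-phase gate took 410 cells (102, 76 and 232) with at least 2% Saa3 plus Hp, both acute-phase proteins. It kept the members' limits on Prg4 (under 1%) and on Fmod. The Fmod gate took 350 cells (82, 115 and 153) with at least 2 molecules of Fmod, the tendon and cartilage proteoglycan fibromodulin. It kept the members' limits on Prg4 and on Saa3 plus Hp. The acute-phase and Fmod gates set no number of the 7 markers. As a background set, phagocytes were 9696 cells with at least 2 Csf1r molecules and no Pdgfra. Counts were summed for each library and gate and fitted with edgeR's quasi-likelihood test with the library as a block. Calls needed a p under 0.05 after Benjamini-Hochberg adjustment over all genes and a log2 fold change of at least 1 in size, and "adjusted p" below is from this fit. The 19 rule genes were left out. With the library as a block, the tests measure how the differences between gates vary over the 3 pools of 2 mice. The 12 sums of the 4 gates share 1 estimate of this spread, and all 3 comparisons share the member sums.

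Against the lining-side cells, the sublining members had more RNA for insulin-like growth factors, complement, elastic fibre and collagen genes, and less for lining genes, heparin-binding EGF-like growth factor, activin A and Cxcl1. Of 10873 genes tested, 980 were called (9.01%): 685 were higher (6.3%) and 295 lower (2.71%) in the members, and the median over all genes was 0.01. Lining-side cells had fewer UMIs, with medians of 10975, 11097 and 9762. When all cells were thinned to 2000 UMIs and the gates made equal in number, 242 of 2653 genes tested were called.

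The lining list held genes that neither gate used. The 2 gates were set apart by Prg4, itself a lining gene, so the list is no independent check of the contrast. Of 18 lining genes tested, 11 were lower and 2 higher in the members, with a median log2 difference of -1.40. Clic5, an intracellular chloride channel protein of the lining, measured 1.16, 4.26 and 0.622 CPM in the members and 28.3, 60.0 and 37.9 CPM in the lining-side cells. The groups did not overlap, and the difference was -4.34 ± 0.341 (log2, SE; adjusted p = 2.86e-10). Hbegf, a ligand of the EGF receptor, measured 15.6, 28.7 and 28.4 CPM against 292, 387 and 406 CPM (log2 difference -3.80 ± 0.178). Col22a1, a collagen of tissue junctions, stood at 13.0 to 31.9 CPM against 237 to 337 CPM. Hbegf and Col22a1 were named after their values were seen, and in both the lowest lining-side library was above the highest member library.

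The hyaluronan synthases went in opposite directions. Has1 measured 41.4, 42.8 and 68.5 CPM in the members and 316, 313 and 213 CPM in the lining-side cells, and was lower by a log2 difference of -2.35 ± 0.204 (adjusted p = 1.62e-09; named after its values were seen). Has2 measured 38.2, 66.2 and 21.8 CPM against 4.92, 3.69 and 1.56 CPM, and was higher by 3.80 ± 0.34 (adjusted p = 2.94e-09). No library of one gate overlapped the other for either gene. Has2 was 1 of the 2 lining-list genes that were higher in the members, the other being Il1rn, the interleukin-1 receptor antagonist.

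Growth factor genes held some of the widest differences. Of 27 tested, 14 were higher and 2 lower in the members, with a median of 1.05. Igf1, which promotes growth and survival through the IGF1 receptor, measured 844, 893 and 820 CPM in the members and 43.1, 38.7 and 45.1 CPM in the lining-side cells. The member libraries lay close together and far above the others, at a log2 difference of 4.4 ± 0.12 (adjusted p = 8.52e-19). Igf1 was named after its values were seen. Igf2 measured 32.8, 30.7 and 25.8 CPM against 1.23, 0 and 2.07 CPM. That was 487 against 5 molecules, a ratio of 22.5 with a counting interval of 9.56 to 69.5.

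Gas6, a ligand of the TAM receptors that take part in clearing dying cells, measured 1045, 1136 and 855 CPM against 80.0, 94.1 and 184 CPM (3.10 ± 0.171, named after its values were seen). Every member library was above every lining-side library. Pdgfc, a ligand of the PDGF alpha receptor, was lower in the members, at 10.0, 12.5 and 10.4 CPM against 52.9, 33.2 and 28.0 CPM (-1.60 ± 0.203). Of 5 genes for IGF-binding proteins, Igfbp4 and Igfbp3 were higher and Igfbp5 lower. Igfbp5 measured 486, 489 and 807 CPM against 2282, 3492 and 2270 CPM (-2.17 ± 0.211).

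Within 4 matrix lists no gene was called lower, although Col22a1 and the fibronectin gene Fn1, both in the lining list, were (Fn1 named after its values were seen). Of 18 elastic fibre and microfibril genes 8 were higher and none lower, of 10 small leucine-rich proteoglycans 8 and none, of 17 fibrillar and beaded collagens 9 and none, and of 13 basement membrane genes 3 and none. Their medians were 0.81, 1.7, 1.30 and 0.57, beside 0.01 over all genes. Mfap4, a glycoprotein of microfibrils, measured 216, 358 and 200 CPM in the members and 9.84, 11.1 and 10.9 CPM in the lining-side cells (4.61 ± 0.243, adjusted p = 1.45e-13). Mfap5, a second microfibril gene and a mark of adventitial fibroblasts, measured 301, 423 and 394 CPM against 20.9, 40.6 and 44.6 CPM (3.42 ± 0.177). For both, the groups lay far apart in all 3 libraries.

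Ogn, which codes for osteoglycin, measured 98.7, 122 and 96.7 CPM against 4.92, 8.30 and 11.4 CPM (3.61 ± 0.208). Col11a1, a chain of the fibril-nucleating type XI collagen, measured 69.8, 83.8 and 44 CPM against 4.92, 4.61 and 10.9 CPM (3.05 ± 0.287). Lama2, the laminin chain of muscle and nerve basement membranes, stood at 15.4, 26.4 and 18.3 CPM against 1.23, 0 and 1.56 CPM. The lining-side Lama2 sum was 4 molecules and the ratio was 19.5 with a counting interval of 7.56 to 72.1.

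Genes of the myofibroblast and TGF-beta response list were higher in 12 of 15 tested, and none was lower (median 1.89). Postn (periostin, a matrix protein of healing tissue) measured 1038, 1318 and 850 CPM against 75, 114 and 76.7 CPM, a log2 difference of 3.66 ± 0.128 (adjusted p = 7.38e-17). Aspn (asporin), named after its values were seen, measured 188, 180 and 157 CPM against 18.5, 25.8 and 21.3 CPM. The contractile genes Acta2 and Tagln of this list also belong to smooth muscle, whose 6 markers summed to 65.2 to 76.0 CPM in the members and 28.6 to 50.3 CPM in the lining-side cells. The part of smooth muscle RNA in those 2 genes was not tested.

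Complement genes were higher in 10 of 14 tested and lower in none, with a median of 1.40. C3, the central protein of the cascade, measured 3474, 3270 and 2945 CPM in the members and 429, 477 and 455 CPM in the lining-side cells (2.92 ± 0.0995, adjusted p = 7.38e-17; named after its values were seen). The lowest member library had several times the C3 of the highest lining-side library. The other called members included C4b, Cfb, C1s1 and the inhibitor gene Serping1. C1qtnf3, a C1q-related secreted protein that is not a cascade component, had the widest difference in the list (45.4, 51.3 and 51.8 CPM against 0, 6.46 and 4.67 CPM; 3.64 ± 0.303).

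Chemokines split by gene. Of 16 tested, 4 were higher (Cxcl13, Cxcl14, Ccl20 and Ccl19) and 3 lower (Cxcl1, Cxcl9 and Cxcl10) in the members, with a median of 0.19. Cxcl13, which attracts B cells, measured 75, 66.0 and 31.6 CPM against 2.46, 8.30 and 2.59 CPM (3.73 ± 0.460, adjusted p = 6.68e-07). Cxcl14, named after its values were seen, measured 1309, 1177 and 790 CPM against 84.9, 241 and 176 CPM (2.72 ± 0.182). Both were lowest among the member libraries in replicate 3, yet did not overlap with the lining-side values.

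Cxcl1, a neutrophil attractant that acts on CXCR2, was lower in the members at 76.6, 91.9 and 87.7 CPM against 509, 317 and 380 CPM (-2.11 ± 0.133, adjusted p = 4.29e-12). The interferon-induced Cxcl9 measured 54.7, 15.9 and 93.9 CPM against 114, 95.9 and 407 CPM (-1.92 ± 0.287, named after its values were seen). Cxcl12, which retains CXCR4-bearing cells, measured 761, 737 and 697 CPM against 320, 433 and 550 CPM. The groups did not overlap, but the log2 difference of 0.84 was under the size needed for a call, and it was 1.10 without replicate 3. Ccl2, a monocyte attractant, overlapped fully (117 to 134 CPM against 103 to 167 CPM; -0.04, adjusted p = 0.896), and Cxcl5 differed by -0.27 (adjusted p = 0.175). Ccl11, eotaxin, stood at 0.23, 1.19 and 2.18 CPM in the members and was too low to test.

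Cytokine genes were called in both directions, 3 higher and 2 lower of 15. Il33, an alarmin released by damaged stroma, measured 35.6, 38.4 and 30.3 CPM in the members and 3.69, 9.22 and 11.4 CPM in the lining-side cells (1.96 ± 0.292, adjusted p = 1.12e-05). Kitl, the stem cell factor of mast and blood progenitor cells, measured 11.6, 13.1 and 7.46 CPM against 2.46, 3.69 and 0.519 CPM (2.52 ± 0.438). Il6, the inflammatory cytokine, measured 24.2, 24.1 and 10.4 CPM against 135, 36.9 and 24.9 CPM (-1.46 ± 0.242, adjusted p = 4.91e-05). The lining-side value of Il6 in replicate 1 stood far above the other two, and without replicate 1 the difference was -0.84 and no longer called.

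Receptor genes differed less: 2 of 21 were higher and none lower (median 0.31). Il11ra1, the interleukin-11 receptor chain, measured 178, 222 and 218 CPM against 61.5, 72.9 and 81.4 CPM (1.59 ± 0.102). The notch receptor gene Notch3 was called at 1.45 ± 0.351 (adjusted p = 0.00303) but not without replicate 3 (1.00, adjusted p = 0.121). Pericyte markers, which include Notch3, summed to 86.8, 127 and 155 CPM in the members and 196, 168 and 146 CPM in the lining-side cells. The list was lower in the members of replicates 1 and 2 and higher in those of replicate 3. The part of pericyte RNA in the Notch3 call was not tested.

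Signals of the Wnt and BMP families and their inhibitors were called in both directions. Of 18 tested, 8 were higher, among them Sfrp1, Sfrp2, Sfrp4, Dkk2, Dkk3 and Chrdl1, which bind or block such ligands, and the ligand Wnt5a. Lower were Inhba, Bmp2 and Grem1, which codes for a secreted BMP inhibitor. Sfrp2 measured 162, 257 and 112 CPM against 9.84, 8.30 and 7.26 CPM (4.42 ± 0.195, adjusted p = 5.35e-15). Inhba, the activin A subunit, measured 35.2, 46.2 and 46.5 CPM against 346, 461 and 278 CPM (-2.96 ± 0.137, adjusted p = 1.33e-14). In both genes the gates were apart in every library.

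Wnt5a, a ligand of the non-canonical pathway, measured 22.8, 16.9 and 16.2 CPM against 4.92, 2.77 and 5.70 CPM, and Bmp2, a bone morphogenetic protein, 1.16, 1.19 and 1.87 CPM against 9.84, 16.6 and 6.22 CPM. Both were named after their values were seen. Among 7 bone genes, Pth1r, the parathyroid hormone receptor, was higher (44 to 49.8 CPM against 20.9 to 27.7 CPM) and Spp1, osteopontin, was lower (506, 494 and 499 CPM against 2440, 1881 and 1045 CPM). Tnfsf11, the osteoclast-inducing ligand RANKL, overlapped between the gates (18.7 to 28.6 CPM against 7.78 to 28.6 CPM; 0.40, adjusted p = 0.249). Its decoy receptor Tnfrsf11b stood at 1.09 to 1.54 CPM and was too low to test.

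Within the list of 26 proteases and inhibitors tested 8 were higher and none lower (median 0.53). Outside it, 2 such genes of the lining list were lower, both named after their values were seen. These were the inhibitor gene Timp1 (-1.02 ± 0.0671), with a mean of 2962 CPM in the members, and the protease gene Htra4 (-2.48 ± 0.349). Timp3, a matrix-bound inhibitor of metalloproteases, measured 10.9, 24.7 and 21.8 CPM against 4.92, 3.69 and 5.19 CPM (2.15 ± 0.345). The collagenase gene Mmp13 measured 192, 72.3 and 183 CPM against 62.7, 69.2 and 74.2 CPM. Member replicate 2 fell within the lining-side range, and the call (1.21 ± 0.358, adjusted p = 0.0147) was lost without replicate 1 (0.91, adjusted p = 0.0844). Mmp3, stromelysin, overlapped (1350 to 1687 CPM against 1028 to 1767 CPM; 0.20, adjusted p = 0.391).

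Prostaglandin genes were among the farthest apart. Hpgd, the enzyme that inactivates prostaglandins, measured 19.8, 33.9 and 12.6 CPM in the members and 0, 1.84 and 0 CPM in the lining-side cells. That was 365 against 2 molecules, a ratio of 42.1 with a counting interval of 11.6 to 349 (adjusted p = 3.22e-07). The prostaglandin receptor gene Ptger3 went the other way, at 0.698, 0.853 and 2.33 CPM against 14.8, 23.1 and 14.0 CPM (-3.50 ± 0.437). In the lipid list Apod, apolipoprotein D, was higher (58.2, 85.5 and 79.4 CPM against 1.23, 6.46 and 4.67 CPM; 4.17 ± 0.356) and Aldh1a3, a retinoic acid enzyme, lower (-2.94 ± 0.413).

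The adventitial list was called both ways, with 7 of 30 higher and 6 lower (median 0.17). Apart from Mfap5 the higher genes included Ebf2, Serpinf1, Dpt and Col15a1. Procr, the protein C receptor, was lower (36.5, 38.9 and 57.7 CPM against 192, 178 and 203 CPM; -2.0 ± 0.143). Col15a1, a basement membrane collagen that marks a fibroblast state, was called at 1.11 ± 0.229. Its 22.6, 24.4 and 22.2 CPM stood beside a highest level of 24.3 CPM that free RNA allowed in the members and 51.5 CPM in phagocytes. After thinning, Col15a1 was found in 5.79% of members, 1.81% of lining-side cells and 3.80% of phagocytes. A fit with free RNA subtracted was run, but it takes such RNA to have the make-up of the whole library. Whether free RNA had that make-up was not tested.

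Response programmes differed in their calls. Of 22 interferon response genes and 19 hypoxia and glycolysis genes none was called, with medians of -0.46 and -0.52. Of 22 immediate early genes, which enzyme treatment of tissue can induce, 1 was lower, the AP-1 gene Fosl1 (-1.39 ± 0.171). Of 18 NF-kB response genes 1 was higher, Steap4 (1.28 ± 0.141), and 3 were lower, with Tnfaip6, a hyaluronan-binding protein, at 99.2, 105 and 80.8 CPM against 566, 467 and 266 CPM (-2.03 ± 0.107). Of 41 transcription factors 4 were higher and 4 lower. The homeobox gene Prrx2 was higher (81.9, 81.7 and 96.7 CPM against 11.1, 22.1 and 23.9 CPM) and the limb patterning gene Hoxa11 lower (6.98, 5.12 and 6.37 CPM against 24.6, 20.3 and 21.3 CPM).

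**Figure D2:**
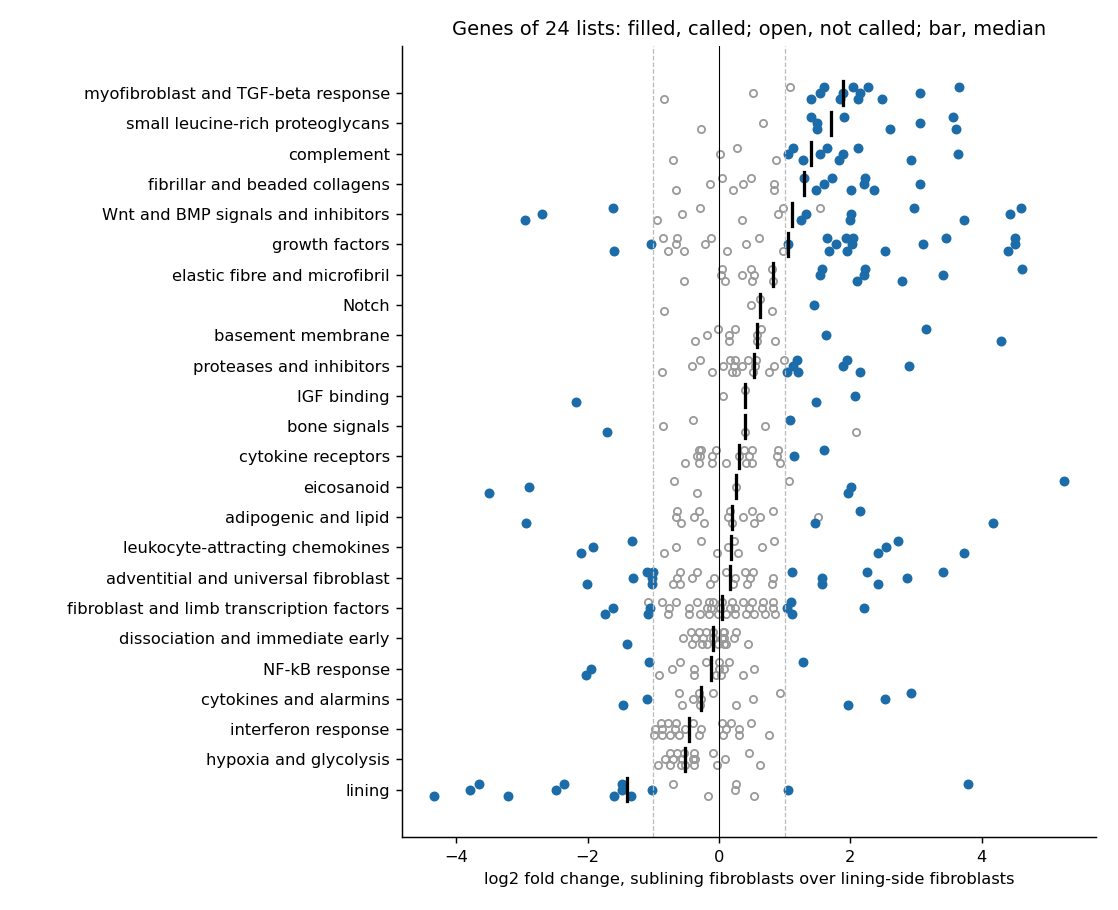
Log2 fold changes of sublining members over lining-side cells (horizontal axis) for the tested genes of 24 lists (rows), with filled points for called genes, open points for the others and a bar at each list's median. The small leucine-rich proteoglycans and the myofibroblast list lie mostly above 0 (medians 1.7 and 1.89), and the lining list lies mostly below (median -1.40).

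Against the acute-phase cells the members differed in fewer genes. They had less RNA for Cfd, Mmp3, Mmp13, Cxcl12 and Cxcl9, and more for Lrrc15, Ebf2, Igf2 and several matrix genes. Of 10873 genes, 185 were called (1.7%), 124 higher (1.14%) and 61 lower (0.561%), with a median of 0.00 over all genes. The count was 95 without the library block, 110 with DESeq2, 295 with expected free RNA subtracted and 57 of 2653 genes after thinning. Acute-phase cells had median UMIs of 13505.5, 14517 and 10257.5, near those of the members.

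Cfd, which codes for the complement protease factor D (also called adipsin), showed the widest difference among the named genes that were lower in the members. It measured 17.7, 25.8 and 14.5 CPM in the members and 471, 347 and 197 CPM in the acute-phase cells, a log2 difference of -4.22 ± 0.144 (adjusted p = 1.52e-16). Adipoq (adiponectin), a hormone of fat cells, measured 1.16, 3.41 and 2.33 CPM against 11.2, 25.6 and 33.5 CPM (-3.54 ± 0.301). Plin1, a lipid droplet protein named after its values were seen, came to 7 molecules in the members and 17 in the acute-phase cells, a ratio of 7.39 (2.91 to 21.1). The adipocyte markers, of which Lep was at 0 in both gates, summed to 3.3 to 5.5 CPM in the members and 18.4 to 36.2 CPM in the acute-phase cells. Their part in the Cfd difference was not tested. The lipid list had 1 gene higher and 4 lower of 19, and the complement list 2 lower of 14.

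Both tested metalloproteases of the named set were lower in the members. Mmp3 measured 1687, 1353 and 1350 CPM against 3620, 4415 and 3184 CPM (-1.51 ± 0.152, adjusted p = 2.72e-07), and Mmp13 192, 72.3 and 183 CPM against 432, 437 and 327 CPM (-1.54 ± 0.286, adjusted p = 0.000833). The gates did not overlap for either gene. With DESeq2 or with free RNA subtracted Mmp13 was no longer called, at differences of -1.54 and -1.49. Timp3 was higher at 10.9, 24.7 and 21.8 CPM against 3.94, 7.21 and 5.59 CPM (1.67 ± 0.298).

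Chemokines were lower in 4 of 16 and higher in none (median -0.53). Cxcl9 measured 481, 163 and 258 CPM in the acute-phase cells, above the members in each library (-2.72 ± 0.278, adjusted p = 2.76e-07). Cxcl12 measured 1246, 1487 and 1362 CPM against the members' 697 to 761 CPM (-1.04 ± 0.110, and -0.96 without replicate 2). Cxcl1 measured 192, 179 and 124 CPM in the acute-phase cells (-1.05 ± 0.138, adjusted p = 1.29e-05, and -0.89 without replicate 1). Ccl5, named after its values were seen, was lower in 2 of 3 libraries only (76.8, 50.8 and 87.2 CPM against 344, 48.8 and 227 CPM) and was lost without replicate 1 (-0.91). Under the size for a call stood Cxcl5 at -0.94 (-1.0 without replicate 1) and Ccl2 at -0.57 (adjusted p = 0.0113).

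The sequences before the start sites of the 3 listed genes with a matching motif are shown because these genes, an attractant of neutrophils and 2 matrix proteases, were lower in the members and are textbook targets of NF-kB and AP-1. Of the 14 list genes lower in the members than in the acute-phase cells, 11 had an entry in the RefSeq promoter table (GRCm38.p6, not the GRCm39 build named for the counts). In windows of 250 bases upstream, searched on both strands, 1 held the NF-kB letters GGANTTTCC and 2 held the AP-1 letters TGANTCA. Among all 32851 promoters of that table, 350 (1.07%) held the first and 2217 (6.75%) the second. The last 120 bases before each start are printed with the match in capitals, all on the + strand: Cxcl1 at chr5:90891125-90891244, Mmp13 at chr9:7272394-7272513 and Mmp3 at chr9:7445702-7445821.
Cxcl1: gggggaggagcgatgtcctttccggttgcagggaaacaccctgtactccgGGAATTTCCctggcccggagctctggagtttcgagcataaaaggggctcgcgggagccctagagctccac
Mmp13: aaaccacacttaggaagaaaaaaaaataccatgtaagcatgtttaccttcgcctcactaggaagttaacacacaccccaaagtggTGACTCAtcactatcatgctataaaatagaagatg
Mmp3: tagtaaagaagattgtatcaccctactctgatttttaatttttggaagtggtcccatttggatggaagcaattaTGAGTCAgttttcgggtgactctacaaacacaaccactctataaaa
The Cxcl1 match lay 70 to 62 bases upstream of the start, the Mmp13 match 35 to 29 and the Mmp3 match 46 to 40. A match describes the letters and shows no binding in these cells.

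Several other lists held genes that were higher than in the acute-phase cells. Lrrc15, a membrane protein of TGF-beta-stimulated fibroblasts, measured 22.6, 27.5 and 33.4 CPM in the members and 3.94, 4.0 and 3.73 CPM in the acute-phase cells (2.82 ± 0.316, adjusted p = 1.15e-06). Its list, the myofibroblast and TGF-beta response genes, had 4 of 15 higher and none lower. The Wnt and BMP list had 4 of 18 higher (Sfrp2, Wnt5a, Bmp4 and Dkk2, the last 3 named after their values were seen) and none lower. Sfrp2, a secreted Wnt inhibitor, measured 162, 257 and 112 CPM against 69.0, 93.7 and 42.1 CPM (1.22 ± 0.122). Ebf2, a transcription factor of mesenchymal and fat precursors, measured 24.2, 57.0 and 30.6 CPM against 9.86, 11.2 and 4.10 CPM (2.09 ± 0.261). No library of one gate overlapped the other for these 3 genes.

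Igf2 was higher at 25.8 to 32.8 CPM against 5.59 to 6.41 CPM (2.15 ± 0.239). Col8a1, a short-chain collagen, measured 32.8, 65.5 and 46.2 CPM against 7.89, 17.6 and 11.2 CPM (1.89 ± 0.252), and Aspn 157 to 188 CPM against 59.6 to 62.5 CPM (1.37 ± 0.116). Of 10 small leucine-rich proteoglycans 4 were higher, although the list's median was -0.04. Lower were Lcn2, an iron-binding acute-phase protein (660, 859 and 431 CPM against 1423, 1681 and 932 CPM; -1.20 ± 0.148), and Igfbp5 (-1.10 ± 0.206), whose libraries overlapped and whose call was lost without replicate 1 (-0.93). No gene of the lining, cytokine, receptor, interferon, hypoxia or elastic fibre lists was called. Both gates refused cells with 1% or more Prg4. Il6 overlapped (-0.31, adjusted p = 0.616), as did Tnfsf11 (-0.16, adjusted p = 0.751), and Il33 was 0.79 higher (adjusted p = 0.0348), below the size for a call with all libraries and 1.10 without replicate 2.

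Against the Fmod cells the members had more chemokine RNA and less of several collagen, proteoglycan and tendon genes. Of 10873 genes, 151 were called (1.39%), 76 higher (0.699%) and 75 lower (0.69%), with a median of 0.01. The count was 89 without the library block, of which 37.1% were higher against 50.3% with it, 97 with DESeq2, and 46 of 2653 genes after thinning. Fmod cells were the deepest, with median UMIs of 18716.5, 18478 and 12955.

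Of 16 chemokines 5 were higher in the members and none lower (median 0.89). Cxcl13 measured 75, 66.0 and 31.6 CPM in the members and 22.9, 20.3 and 5.67 CPM in the Fmod cells (1.85 ± 0.296, adjusted p = 0.00017). Cxcl1 measured 76.6, 91.9 and 87.7 CPM against 51.8, 32.3 and 27.5 CPM (1.22 ± 0.165), and Cxcl5, another CXCR2 ligand, 419, 403 and 331 CPM against 154, 242 and 96.0 CPM (1.22 ± 0.146). For all 3 the lowest member library was above the highest Fmod library.

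Cxcl14 was higher as well (790 to 1309 CPM against 385 to 533 CPM; 1.18 ± 0.16, named after its values were seen). Ccl2 was called at 1.03 ± 0.156 with 117, 134 and 120 CPM against 66.5, 67.6 and 43.6 CPM, and fell under the size for a call without replicate 3 (0.88). Ccl2 in the members was below its 174 CPM in phagocytes, and free RNA allowed up to 68.2 CPM of it. Cxcl12 was higher by 0.91 and Mmp3 by 0.95, neither called, although Mmp3 passed without replicate 3 (1.04). Il6 differed by 1.01 (adjusted p = 0.0625) and passed without replicate 1 or without replicate 3 (1.28 and 1.20).

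Collagens and the proteins that organise them were lower in the members: 3 of 17 collagens, 3 of 10 small leucine-rich proteoglycans and 6 of 15 myofibroblast genes, with none higher and medians of -0.33, -0.31 and -0.88. Col8a1 measured 32.8, 65.5 and 46.2 CPM against 216, 184 and 249 CPM (-2.22 ± 0.153, adjusted p = 4.31e-10). Col11a1, named after its values were seen, measured 69.8, 83.8 and 44 CPM against 277, 300 and 225 CPM (-2.10 ± 0.144). C1qtnf3 measured 45.4, 51.3 and 51.8 CPM against 349, 388 and 366 CPM (-2.93 ± 0.128, adjusted p = 6.08e-14). The gates did not overlap for any of the 3, each of which was also called higher in the members than in the lining-side cells (2.22, 3.05 and 3.64), in a comparison that shares the member sums.

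Scx (scleraxis), the transcription factor of tendon cells, measured 26.1, 22.2 and 36.7 CPM in the members and 81.2, 90.6 and 129 CPM in the Fmod cells (-1.87 ± 0.171, adjusted p = 5.27e-08). The tenocyte markers, which include Scx and the gate gene Fmod, summed to 205 to 330 CPM against 1328 to 1851 CPM, and the chondrocyte markers to 228 to 244 CPM against 812 to 852 CPM. The part of tendon and cartilage cells in the list differences was not tested. Alpl, an alkaline phosphatase of mineralising cells, was lower (1.63, 2.90 and 1.24 CPM against 9.41, 8.40 and 14.4 CPM; -2.50 ± 0.424). Ibsp, a bone matrix protein named after its values were seen, was lower in 2 of 3 libraries (14.4, 4.78 and 3.89 CPM against 10.6, 49.9 and 190 CPM).

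Elastin RNA (Eln) was lower at 103, 181 and 94.2 CPM against 367, 206 and 244 CPM (-1.17 ± 0.202), and not called without replicate 1 (-0.81). Ctgf, a matricellular target of TGF-beta, was lower at -1.31 ± 0.206 and -0.99 without replicate 3. Timp3 was lower here (-1.37 ± 0.176), unlike its higher level against the other 2 gates. Ptgis, prostacyclin synthase, was lower at 6.75, 8.19 and 8.70 CPM against 22.9, 20.3 and 46.7 CPM (-1.95 ± 0.221), and Igfbp3 at 9.31, 11.9 and 16.0 CPM against 24.7, 33.6 and 72.0 CPM (-1.83 ± 0.204). Each of these groups was apart in all 3 libraries.

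Higher in the members than in the Fmod cells was Tnxb, a tenascin of adventitial fibroblasts, at 23.3, 55.8 and 56.7 CPM against 5.88, 12.4 and 10.0 CPM (2.20 ± 0.212, adjusted p = 1.14e-07). Aldh1a2, a retinoic acid enzyme, measured 14.9, 17.9 and 40.9 CPM against 1.76, 3.54 and 8.73 CPM (2.28 ± 0.364). Sfrp4 was called at 1.24 ± 0.199 and at 0.77 was not called without replicate 3. Steap4, a metalloreductase induced by inflammation, was higher by 1.20 ± 0.126. Il33, Tnfsf11 and Col15a1 differed by 0.11, -0.10 and -0.24 (adjusted p = 0.863, 0.878 and 0.537), and Mmp13 by -0.92 (adjusted p = 0.0714), which passed without replicate 1 (-1.49) or replicate 3 (-1.23). Postn (-0.71) and Comp (-0.90), named after their values were seen, were lower in all 3 libraries but under the size for a call.

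**Figure D3:**
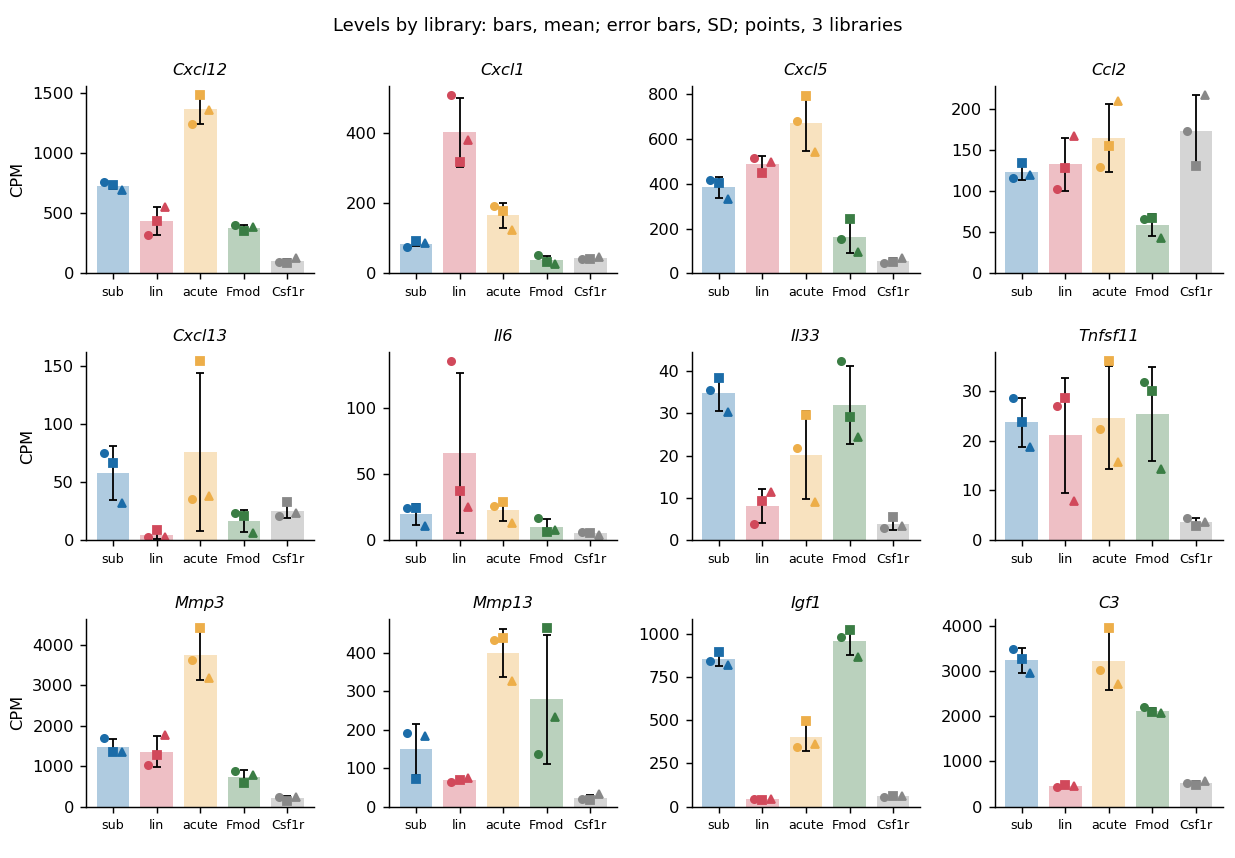
Levels of 12 secreted signals and proteases in CPM in 5 sets of cells (sub, sublining; lin, lining-side; acute, acute-phase; Fmod; Csf1r, phagocytes). Bars give the mean, error bars the SD and points the 3 libraries. Igf1 is low in the lining-side cells (38.7 to 45.1 CPM), intermediate in the acute-phase cells (346 to 496 CPM) and high in the sublining members (820 to 893 CPM) and the Fmod cells (868 to 1021 CPM).

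The levels side by side placed each gene by gate. Igf1 averaged 852 CPM in the members, 957 in the Fmod cells, 402 in the acute-phase cells, 42.3 in the lining-side cells and 59.4 in phagocytes, and the member and Fmod ranges overlapped. C3 measured 3022, 3953 and 2707 CPM in the acute-phase cells, overlapping with the members, and 2077 to 2197 CPM in the Fmod cells. Cxcl13 measured 35.5, 154 and 37.6 CPM in the acute-phase cells, a range that overlaps with the members' 31.6 to 75 CPM. Free RNA allowed at most 78.6 CPM of Igf1, 381 of C3 and 8.10 of Cxcl13 in the members, each well below the level found.

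The members were not uniform. Clustering of the 1127 cells gave 7 sub-clusters, which are kept as numbers because the clustering used the same genes that describe them. No gene was tested between them, and the levels are sums over all 3 libraries. Sub-cluster 1 (268 members, 23.8%) was led by Cxcl13 (125 CPM against 30.5 in the other members), the water channel Aqp2 (128 against 32.0) and the pattern recognition protein Ptx3 (314 against 117). It also had 1931 CPM of Cxcl14 against 759. It held 35%, 26.2% and 16.5% of the members of replicates 1, 2 and 3.

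Sub-cluster 2 (203 members, 18.0%) was led by long genes and nuclear RNAs, among them Mid1 (150 against 7.53 CPM), Naaladl2 (230 against 15.4), and the imprinted RNAs Airn (416 against 36.2) and Meg3 (404 against 37.7). Such RNAs are typical of nuclear content, which was not measured otherwise. Sub-cluster 3 (177 members, 15.7%) was the one led by adventitial genes: Clec3b (913 against 103 CPM), Tnxb (211 against 24), Pi16 (565 against 97.4), the proteoglycan gene Prelp (430 against 77.6) and Igfbp6 (1602 against 405). Cd34 stood at 309 against 75.5 CPM there, and Dpp4 at 16 CPM, below its 43.7 CPM in sub-cluster 7. It held 8.08% of the members of replicate 1 and 18.4% and 17.7% of those of replicates 2 and 3. Replicate 1 was lowest, as it was for Clec3b.

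Sub-cluster 4 (162 members, 14.4%) was led by Col22a1 (77.9 against 14.8 CPM), the phospholipase gene Pla2g2e, Aldh1a2 and Sfrp4, and had 3670 CPM of Prg4. Replicate 3 supplied 120 of its 162 cells and replicate 2 only 10. It held 12.3%, 2.88% and 23.1% of the members of replicates 1, 2 and 3, so it was scarce in replicate 2. Sub-cluster 5 (152 members, 13.5%) was led by Sncg (200 against 20.3 CPM), the pericyte gene Rgs5 (224 against 23), the nitric oxide synthase gene Nos2 (77.7 against 10.7), Cxcl9 (173 against 33.5) and the smooth muscle actin gene Acta2 (100 against 25.9). Its pan-fibroblast genes summed to 39291 CPM, against 70555 to 80129 CPM in sub-clusters 1 to 4, and its Prg4 was 4530 CPM, the highest of the 7. The pericyte list summed to 361 CPM there.

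The last 2 sub-clusters carried leukocyte RNA. Sub-cluster 6 (145 members, 12.9%) was led by the neutrophil granule genes Elane (156 against 3.25 CPM), Prtn3 and Camp, with S100a8 at 12476 against 1202 CPM and erythroid markers at 870 CPM. Sub-cluster 7 (20 members, 1.77%) was led by T cell genes such as Themis, Gata3, Cxcr6 and Cd3d (284 against 1.10 CPM). The rule markers Thy1 and Dpp4 were highest there, at 367 and 43.7 CPM, against 269 and 16.1 CPM in sub-cluster 3. The part of T cell RNA in these levels was not tested. Pan-fibroblast genes summed to 54922 and 40540 CPM in sub-clusters 6 and 7. Whether these are doublets or fibroblasts with captured RNA was not tested.

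**Figure D4:**
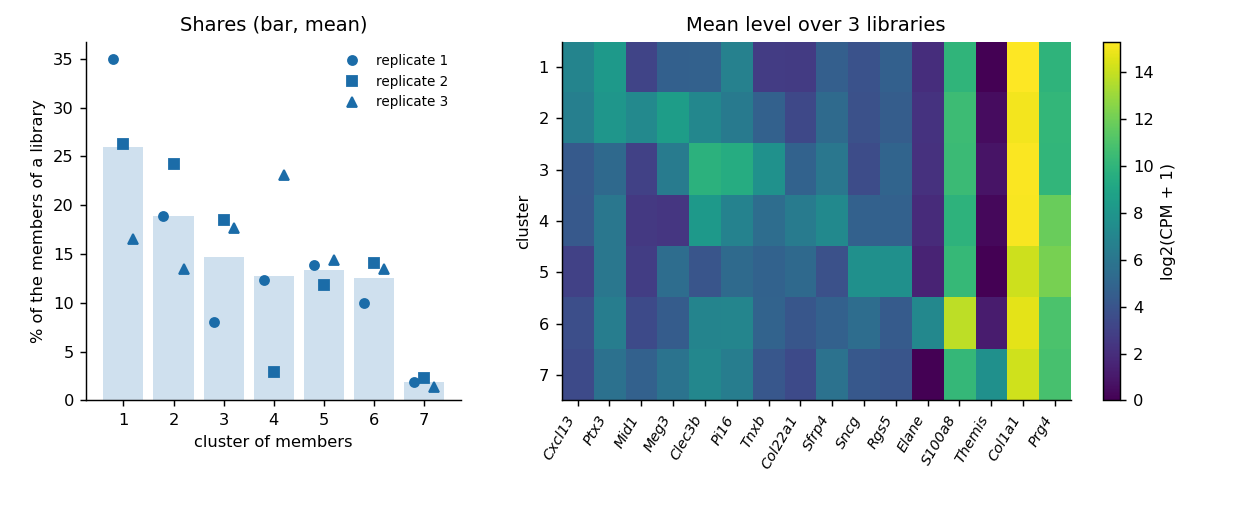
Share of each library's members in the 7 sub-clusters (left, percent, 1 point per library, bar at the mean) and mean levels of leading genes in each sub-cluster over the 3 libraries as log2(CPM + 1) in colour (right). Sub-cluster 4 holds 12.3%, 2.88% and 23.1% of the members of replicates 1, 2 and 3. In sums over the libraries, Pi16 and Clec3b stand at 565 and 913 CPM in sub-cluster 3, against 97.4 and 103 CPM in the other members. Pi16 is also present elsewhere, at 149 CPM in sub-cluster 4 and 138 CPM in sub-cluster 6.

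The members were also divided by detection of Pi16 or Dpp4, which put 95, 165 and 186 cells (36.5%, 47.6% and 35.8% of members) on the detected side. Few other genes moved with the split. Of 11166 genes tested 47 were called (0.421%), 38 higher (0.34%) and 9 lower (0.0806%) in the detected cells. The detected cells were deeper, with median UMIs of 16192, 17200 and 11380 against 13885, 15158.5 and 11049.5. The count was 1 without the library block, 13 with DESeq2, 30 without possible doublets, 12 after thinning and 0 with free RNA subtracted (988 genes there had an unadjusted p under 0.05, beside 950, 8.51%, in the fit as first made).

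Blood cell genes made up part of the calls. S100a8 measured 4598, 5084 and 2113 CPM in the detected cells and 1519, 2980 and 955 CPM in the others (1.15 ± 0.109), and Ly6g, a neutrophil surface gene, was higher by 1.69 ± 0.335. Elane measured 0.612, 10.7 and 0 CPM against 1.5, 116 and 0 CPM (-3.43 ± 0.282), a value of replicate 2. All 3 were named after their values were seen, and S100a8 was not called without replicate 1 (0.91) nor Ly6g without replicate 2 (2.08, adjusted p = 0.127). Without the members that carried leukocyte RNA, 25 genes were called, 18 of them among the 47, and the 3 genes stood at -0.13, 0.11 and -0.07.

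Stromal genes that were called in both sets included a few signals. Hbegf was lower in the detected cells at 9.79, 16.2 and 16.3 CPM against 19.2, 41.0 and 35.7 CPM (-1.22 ± 0.18, adjusted p = 0.00033). Ifit1, an interferon-induced antiviral gene, was higher at 30.0, 21.3 and 40.0 CPM against 15, 6.09 and 16.6 CPM (1.29 ± 0.189, adjusted p = 0.000303), the only 1 called of 21 interferon response genes. The groups were apart in each library for both genes.

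The ligand gene Wnt9a measured 8.57, 8.94 and 13.8 CPM against 2.63, 3.05 and 3.22 CPM (1.79 ± 0.33), and Dio2, a thyroid hormone deiodinase, 6.73, 13.1 and 12.5 CPM against 3.01, 3.38 and 3.22 CPM (1.73 ± 0.321). Sncg measured 9.79, 19.6 and 52.6 CPM against 57.9, 63.6 and 69.4 CPM (-1.28 ± 0.213). These 3 were named after their values were seen and kept their size without the leukocyte-RNA cells (1.88, 1.76 and -1.28). Wnt9a and Dio2 were not called without replicate 3 (1.58 and 1.60, adjusted p = 0.135 and 0.0817), and Sncg at -0.99 was not called without replicate 1.

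C1qtnf3 was higher by 1.01 ± 0.163 and was not called without replicate 1 or 2 (0.96 and 0.72), Timp3 by 1.08 and not without replicate 3 (0.60), and Ptgis by 1.5 and not without replicate 1 or 3 (0.98 and 1.40). Chrdl1 (1.02) and Cx3cl1 (-1.72), a membrane-bound chemokine named after its values were seen, were not called when any 1 library was left out (adjusted p = 0.098 to 0.42 and 0.0966 to 0.191). None of the 30 adventitial genes was called (median 0.16 beside -0.00 over all genes). With 0.421% of all genes called, that count does not set the list apart. Sema3c, a guidance gene of that list named after its values were seen, measured 42.2, 85.6 and 69.7 CPM against 32.7, 30.5 and 35.4 CPM. Its difference of 0.98 fell just under the size for a call and was 1.18 without replicate 1. Without the leukocyte-RNA cells Sema3c was called (1.04, adjusted p = 7.41e-05).

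The cytokine and chemokine genes that were followed in every comparison did not pass between the detected and undetected members. Outside that set, the chemokine genes Ccl5 and Cxcl3 were called lower only without the leukocyte-RNA cells, and were named after their values were seen. Ccl5 stood at -1.44 there (adjusted p = 4.55e-08), beside -0.66 with all members, and Cxcl3 at -1.20 (adjusted p = 0.0124), beside -0.95. Mmp3 was lower in the detected cells in all 3 libraries (1138, 1143 and 1237 CPM against 2025, 1559 and 1418 CPM; -0.51, adjusted p = 0.00292) but under the size for a call, and Cxcl1 differed by -0.53 on the log2 scale (adjusted p = 0.0517). Cxcl12, Ccl2, Cxcl5, Il33, Tnfsf11, Mmp13 and Col15a1 differed by between -0.21 and 0.19, and Il6 by -0.62 (adjusted p = 0.294).

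**Figure D5:**
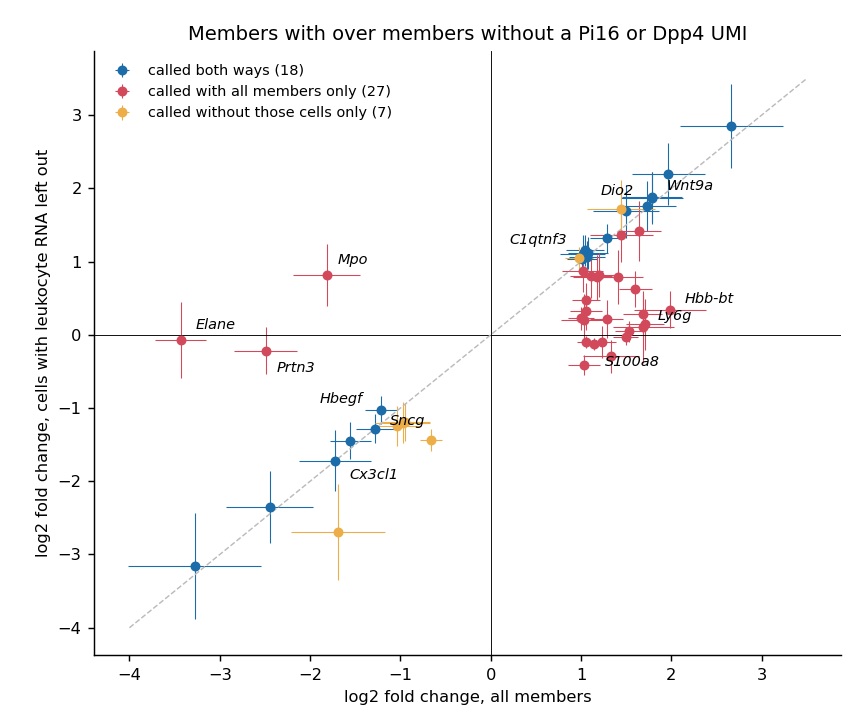
Log2 differences between members with and without detected Pi16 or Dpp4, for all members (horizontal axis) and without members that carry leukocyte RNA (vertical axis), with 1 point per gene called in either fit and lines for the SE. S100a8, Ly6g and Elane lie near 0 on the vertical axis (-0.13, 0.11 and -0.07), and Wnt9a, Dio2 and Sncg lie near the dashed diagonal of equal values.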

How the data were processed

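Single-cell libraries were made from knee synovium on the DNBelab C platform, which tags each cell and molecule, per the labels' protocols. The authors deposited raw UMI counts per gene and barcode, and per the file headers the matrices were written by PISA 1.0. The submitters' processing notes also name Seurat 3.0.2, R 3.6 and the build GRCm39, with no role. Which aligner and annotation were used is not given in the sources used here. The tables hold 24357 genes in all, 21479 of them in every library.

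From the counts, cells were gated by the rule given above, and the counts of each gate were summed per library and divided by the gate's total for CPM. The sums were fitted with edgeR 4.0.16 (R 4.3.3) by glmQLFit and glmQLFTest after filterByExpr and TMM scaling, as 12 sums in 1 fit with the library as a block (6 sums for the Pi16 and Dpp4 split). The block was used because the sums of a library come from the same 2 pooled mice: deviations of same-library sums correlated at 0.0622 to 0.518 (median 0.260, 18 pairs), and those of different libraries at -0.449 to 0.0676 (median -0.120, 36 pairs). The fit was tested on simulated data first. The lining-side, acute-phase and Fmod gates shared the members' clauses on quality, Pdgfra, Cdh5, the cell cycle and Csf1r and do not overlap.

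Named genes were, from each of 24 lists, the called gene with the largest change in each direction that held in all 3 libraries and reached 10 CPM, plus 12 genes named in every comparison. The members, the lists and the comparisons were chosen with earlier results of these data known, so they give no independent support. The free RNA limit is the S100a8 plus S100a9 level of a gate over that of its whole library. Doublets were scored with Scrublet in scanpy 1.11.5 and kept, and left out as an alternative. For thinned shares every cell was sampled to 2000 UMIs and shallower cells were left out (1, 0 and 5 members). Sub-clusters came from Leiden clustering (leidenalg 0.10.2) of 2000 variable genes, 20 principal components and a resolution of 0.5. Alternatives covered the block, DESeq2 1.42.0, scaling, filters, doublets, free RNA, depth, single replicates and gate limits. Leaving out cells with leukocyte RNA was added after seeing the data. Of the T cell markers, Trac and Trbc2 were not used here.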

Additional observations from a re-analysis of the deposited data

How the results depend on the processing

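Without the replicate block, called genes numbered 866 against lining-side, 95 against acute-phase and 89 against Fmod cells, and 1 in the split by Pi16 and Dpp4. DESeq2 called 110 against acute-phase and 97 against Fmod cells and 13 in the split. Subtracting free RNA gave 295 against acute-phase cells and 0 in the split (988 at an unadjusted p under 0.05), and thinning gave 242, 57, 46 and 12. For the split, leaving out doublets gave 30, leaving out leukocyte-RNA cells 25, and splitting after thinning 10. Leaving out single replicates gave 784 to 981, 127 to 168, 126 to 132 and 35 to 49 genes, and a member share of 2.59% to 3.21%. The share was 4.02% with 2 markers and 1.66% with 4. Scaling by library totals moved the median of all genes against lining-side cells from 0.01 to -0.13, and the share of calls that were higher from 69.9% to 59.6%. Against acute-phase cells that share was 77.8% with library totals and 49.5% with free RNA subtracted, in place of 67.0%. Of 723, 345, 478 and 259 alternative values for the 4 comparisons, 705, 319, 441 and 171 kept their direction and their side of the threshold.

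Signs turned for values that were not called, and for S100a8 in the split, which was -0.13 without leukocyte-RNA cells. Against lining-side cells, Ccl2 was 0.0084 without the low-count filter, 0.0201 without leukocyte-RNA cells, 0.0294 with 4 markers and -0.17 to 0.22 without single replicates, and Mmp3 was -0.054 with 4 markers and -0.0898 to 0.51 without single replicates. Against acute-phase cells, Col15a1 was -0.575 with free RNA subtracted and Tnfsf11 -0.345 to 0.17 without single replicates. Against Fmod cells, Il33 was -0.0075 to 0.302 without single replicates, and Tnfsf11 was 0.12 with free RNA subtracted and -0.276 to 0.0548 without single replicates. In the split, Col15a1 was 0.0059, Cxcl12 0.0110 and Tnfsf11 0.0131 with library totals, and Col15a1 was 0.00089 and Tnfsf11 0.0929 without leukocyte-RNA cells. With free RNA subtracted Cxcl12, Cxcl5, Mmp13 and Tnfsf11 were 0.42, 0.0994, 0.38 and 0.35. Ccl2 was -0.14 after thinning, Col15a1 0.0307 when split after thinning, and Tnfsf11 0.0224 without doublets. Without single replicates the split gave -0.169 to 0.434 for Ccl2, -0.0902 to 0.0685 for Col15a1, -0.0617 to 0.0266 for Cxcl12, -0.166 to 0.0422 for Mmp13 and -0.0915 to 0.0366 for Tnfsf11. The causes were not tested, and thinned fits test fewer genes. The lining-side gate has 60 to 168 cells a library, so genes under a few CPM rest on single molecules there.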
